A study of Mus musculus with 42 samples.

Results

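The 10 genes described here encode the 2 classes of major histocompatibility complex (MHC) molecules and the proteins that serve class II: H2-Aa, H2-Ab1, H2-Eb1, Cd74, Ciita, H2-DMa, H2-DMb1, H2-K1, H2-D1 and B2m. They were chosen by name, and all 10 were found in each of the 6 deposited tables, among 12762 genes listed in all of them. The data are liver RNA-seq libraries of 42 male mice on a C57BL/6J background, 1 library per mouse and 7 mice per group. WT lean and KO lean mice received a control diet with 10% of energy from fat, and WT obese and KO obese mice a high fat diet with 60%, in both cases from an age of 6 weeks for 15 weeks and with vehicle injections (ethanol and PBS). WT obese+RvE1 and KO obese+RvE1 mice had the high fat diet and intraperitoneal injections of 300 ng resolvin E1 (RvE1), a lipid mediator derived from eicosapentaenoic acid, on 4 days before harvest on day 5. KO mice lacked ChemR23, a receptor for RvE1 and chemerin, through CRISPR/Cas9 editing, and WT mice were littermates. The comparisons address how the high fat diet, the loss of ChemR23 and RvE1 relate to liver transcript levels.

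MHC class I molecules consist of a heavy chain (H2-K1 or H2-D1 in this strain) bound to beta-2 microglobulin (B2m), are carried by nearly all nucleated cells and display peptides made inside the cell to CD8 T cells. MHC class II molecules, here I-A with the chains H2-Aa and H2-Ab1, are found mainly on macrophages, dendritic cells and B cells and display peptides from ingested material to CD4 T cells. Cd74, the invariant chain, guides new class II molecules to the endosome, H2-DMa and H2-DMb1 form the complex that exchanges its fragment for other peptides, and Ciita is the coactivator that class II transcription depends on. H2-Eb1 is the beta chain of I-E, whose alpha chain is not made in C57BL/6J mice.

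The library depth ran from 15992525 to 43841120 read pairs on listed genes. Cmklr1, which encodes ChemR23, had normalized counts between 40.8 and 114 in WT lean mice and between 9.72 and 22.6 in KO lean mice, and its levels in KO obese mice (5.08 to 23.2) also lay below those of all WT obese mice (33.3 to 102). A normalized count is the number of read pairs on a gene divided by a size factor of its library, and it is comparable only within a table of 14 libraries. Hepatocyte markers (6 genes, among them Alb and Apoa1) summed to between 1245000 and 1799000 normalized counts in the lean mice.

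In the genome 7 of the genes lie within the MHC on chromosome 17 (mm10, the same assembly as GRCm38): H2-K1 at 33996017-34000347, H2-DMa at 34119541-34139101, H2-DMb1 at 34153072-34160230, H2-Ab1 at 34257689-34269419, H2-Aa at 34282744-34287823, H2-Eb1 at 34305867-34316674 and H2-D1 at 35262730-35267499. B2m lies on chromosome 2 (122147686-122153083) and Ciita on chromosome 16 (10480059-10528418). Promoters of MHC genes are known for a shared arrangement of an X box and a Y box, in which the Y box is an inverted CCAAT box and the second part of the X box resembles a CREB site. H2-Ab1 and Ciita had no RefSeq promoter entry, and the position and promoter of Cd74 are not reported here. RefSeq promoter windows (GRCm38.p6) were searched for the other 7 genes. Of these, 6 held TGANG followed, after 19 to 21 bases, by ATTGG on the strand of the gene within 250 bases before the start, against 0.472% of 32851 promoter windows of all genes (0.846% on either strand). These letters and gaps were chosen with the member sequences in view, so the count among members was set by that choice and is no enrichment. The runs are shown because they join genes of both classes, with both motifs in capitals, 5′ to 3′ on the strand of the gene.
H2-Aa, chr17:34287867-34287897, minus strand: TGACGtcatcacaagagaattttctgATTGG
H2-Eb1, chr17:34305784-34305812, plus strand: TGATGctggactcctttgatgctgATTGG
H2-DMb1, chr17:34153105-34153134, plus strand: TGATGctaggctgattcactcagtgATTGG
H2-K1, chr17:34000359-34000388, minus strand: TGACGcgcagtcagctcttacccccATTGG
H2-D1, chr17:35262993-35263022, plus strand: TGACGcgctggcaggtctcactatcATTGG
B2m, chr2:122147609-122147638, plus strand: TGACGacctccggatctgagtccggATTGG

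The gap between the motifs was 20 bases in H2-DMb1, H2-K1, H2-D1 and B2m, 21 in H2-Aa and 19 in H2-Eb1. Neither window of H2-DMa held the pair. Their RefSeq starts (34122832 and 34125518) lie inside the gene as annotated, and the stretch before its annotated start at 34119541 was not searched. The word GAAA repeated after a gap of 2 bases, letters of an interferon-stimulated response element, was found on either strand in 2.98% of all windows and among the members in that of B2m. TTC followed after 3 bases by GAA, the core of a gamma-activated site, was in 7.02% of all windows and in none of these 7 genes. Both searches took these exact letters only, so a gene without a hit may still hold a variant of either element. The stretches upstream of H2-Aa and B2m, 1 gene of each class, are given with the same motifs in capitals.
H2-Aa, chr17:34287824-34287943, minus strand: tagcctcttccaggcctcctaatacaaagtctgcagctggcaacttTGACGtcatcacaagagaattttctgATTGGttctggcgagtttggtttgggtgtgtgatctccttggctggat
B2m, chr2:122147567-122147685, plus strand: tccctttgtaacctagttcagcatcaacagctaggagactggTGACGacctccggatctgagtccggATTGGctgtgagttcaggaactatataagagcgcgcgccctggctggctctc

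In every group the genes stood in the same order of level once counts were divided by the length of their merged exons. In WT lean mice B2m had 24410 ± 3643 normalized counts per kb (SD, n = 7), H2-K1 had 10190 ± 1220 and H2-D1 had 1982 ± 272. Cd74 followed with 411 ± 124 per kb, H2-Ab1 with 185 ± 43.5, H2-Eb1 with 156 ± 40.8 and H2-Aa with 96.3 ± 21.8. The class I genes did not overlap with each other or with Cd74. The ranges of Cd74 and H2-Ab1, of H2-Ab1 and H2-Eb1, and of H2-Eb1 and H2-Aa overlapped between mice, although each of the 7 mice had these genes in the order given. H2-DMb1 (25.3 ± 7.25 per kb), H2-DMa (13.0 ± 3.44) and Ciita (2.92 ± 0.908) were the lowest, with median read pairs of 49, 49 and 35 per library over all 42 mice, so that counting error weighs more on them than on the other 7. Reads on related genes add a second limit to 3 members: 27.2% of the 50-base windows of the H2-DMb1 transcript occur also in H2-DMb2, 14.3% of those of H2-D1 and 8.79% of those of H2-K1 occur in transcripts of other genes, and none of those of the other 7 members do.

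Across mice the class II genes moved together, and so did the class I heavy chains H2-K1 and H2-D1. For class I this was not particular to its own genes, as the likeness to other genes below shows. After each group's mean was removed, H2-Aa correlated over the 42 mice with H2-Eb1 (Pearson r = 0.961, Spearman rho = 0.964), with H2-Ab1 (r = 0.930, rho = 0.920) and with Cd74 (r = 0.921, rho = 0.918), each with a permutation p of 1e-05, the smallest that 100000 permutations within groups can give (adjusted p = 1.7e-05 over 10 pairs). The peptide exchange genes followed H2-Aa less closely, H2-DMa with r = 0.780 and rho = 0.801 and H2-DMb1 with r = 0.735 and rho = 0.711, at the same permutation p. Ciita had r = 0.513 and rho = 0.493 with H2-Aa (permutation p = 0.00129 and 0.00225, adjusted p = 0.00184 and 0.00321).

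Within class I, H2-K1 and H2-D1 correlated with r = 0.826 and rho = 0.825 (permutation p = 1e-05, adjusted p = 1.7e-05). Of the windows of the H2-K1 transcript, 6.94% occur also in H2-D1, so some reads could be divided between these genes. The part of such reads in their correlation was not tested. H2-K1 and B2m reached r = 0.431 and rho = 0.422 (permutation p = 0.00596 and 0.00908, adjusted p = 0.00745 and 0.0113). H2-Aa gave r = 0.127 and rho = 0.118 with H2-K1 (permutation p = 0.466 and 0.493, adjusted p unchanged) and r = 0.164 and rho = 0.191 with B2m (permutation p = 0.307 and 0.244, adjusted p = 0.342 and 0.271). Other values across the classes were larger: with the mean of H2-K1, H2-D1 and B2m, r was 0.335 for H2-Ab1, 0.381 for H2-DMb1 and -0.404 for Ciita. Without the 2 mice farthest from the median of the first gene, the 8 pairs with an adjusted p below 0.1 kept an r between 0.389 and 0.951. Each mouse's identifier opens with a number that several mice of a group share and whose meaning the labels do not give. Within these numbers (39 mice) the r of 7 of those pairs lay between 0.378 and 0.945, while H2-K1 and B2m had r = 0.0373, so that their relation did not hold there.

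**Figure D1:**
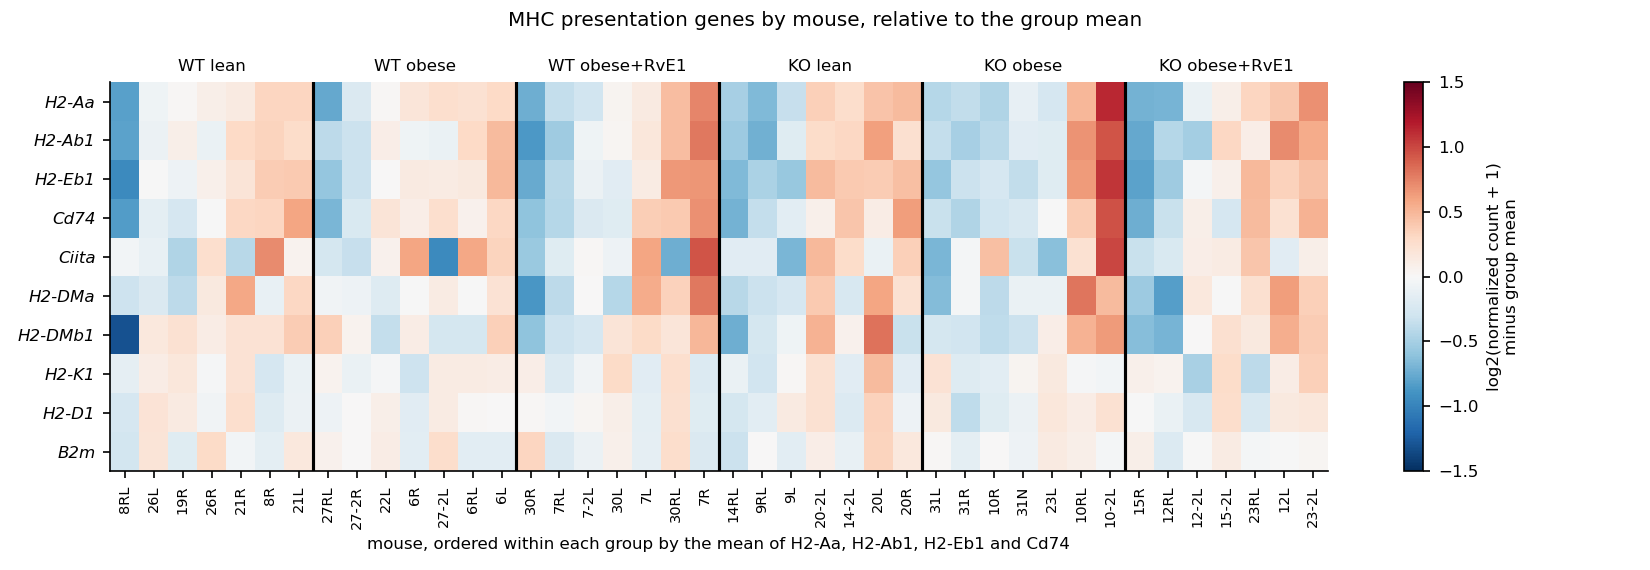
Each column is 1 of 42 mice and each row 1 gene, coloured by log2(normalized count + 1) minus the group mean, with mice ordered within each group by the mean of H2-Aa, H2-Ab1, H2-Eb1 and Cd74. The rows of H2-Aa, H2-Ab1, H2-Eb1 and Cd74 change colour together from left to right within each group, as the ordering favours, and the 3 class I rows are paler (SD within groups of 0.179 to 0.222 on the log2 scale).

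The spread between mice of a group was wider for class II than for class I. On the log2 scale the SD within groups was 0.489 for H2-Aa, 0.494 for H2-Ab1, 0.503 for H2-Eb1 and 0.455 for Cd74, against 0.222 for H2-K1, 0.189 for H2-D1 and 0.179 for B2m. Single mice account for the ends of the class II range: the KO obese mouse 10-2L had 755 normalized counts of H2-Aa, while the 3 mice of number 31 in that group had 256 to 315. In KO lean mice the 3 mice of number 20 had 631 to 685 and the 2 of number 9 had 311 to 388. The mice of number 10 in the KO obese group spanned 252 to 755, so that a shared number did not always go with a like level. Apart from number 23, which holds mice of 2 groups, no number spans groups, and the number and the group cannot be told apart.

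Outside the 10 genes, the 8 whose levels followed the mean of H2-Aa, H2-Ab1, H2-Eb1 and Cd74 most closely over the 42 mice were Olfml3 (r = 0.726), Axl (0.714), Tagln2 (0.689), Hk3 (0.688), Lsp1 (0.683), Atp8b2 (0.680), Gpr137b (0.680) and Gpsm3 (0.679). They came from 12031 genes with a mean of at least 20 normalized counts, whose median r was -0.0294, and all points share the libraries and their depth. Among marker genes, those of leukocytes in general had a median r of 0.533 with the class II mean (6 genes), those of monocytes 0.406 (3 genes), those of stellate cells 0.379 (6 genes), those of Kupffer cells and macrophages 0.314 (11 genes), those of sinusoidal endothelium 0.239 (6 genes), those of dendritic cells 0.0405 (2 genes) and those of hepatocytes -0.0733 (6 genes). For the mean of H2-K1, H2-D1 and B2m the closest genes included Tmem205 (r = 0.895), Mrps21 (0.875), Vkorc1 (0.872), Park7 (0.868), Apoc1 (0.867), Mien1 (0.858) and Higd2a (0.857). Of these, Mrps21 encodes a protein of the mitochondrial ribosome and Apoc1 an apolipoprotein made by hepatocytes. Here too all points share the libraries and their depth, and the part of RNA quality in these values was not tested. The class I mean had a median r of -0.0292 with the Kupffer cell and macrophage markers (-0.537 to 0.220). With those of hepatocytes its median r was 0.350, but single genes ran from -0.426 to 0.726. Over all 12031 genes the median r with the class I mean was 0.0205, and single genes ran from -0.912 to 0.895. B2m, itself a part of this mean, had r = 0.738 with it, below the outside genes named above. A high r with the class I mean was thus not particular to class I genes. For the class II mean the highest r of an outside gene was 0.726.

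In obese KO mice, transcripts of H2-Ab1 and H2-DMa were lower than in lean KO mice, and 9 of the 10 genes had a fold change below 0 on the log2 scale. H2-Ab1, the beta chain of I-A, ranged in KO lean mice from 422 to 1066 normalized counts with a median of 825. In KO obese mice it ranged from 283 to 772 with a median of 353. Of the lean mice 4 lay above all obese mice, and 5 obese mice lay below all lean mice, with an overlap made by the 2 obese mice 10-2L and 10RL. The log2 fold change was -0.79 ± 0.25 (SE, 95% interval -1.32 to -0.27; adjusted p = 0.0428, limma on log2(normalized count + 1), two-sided), a fold of 0.577. This scale understates the change of genes with few counts.

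H2-DMa, a chain of the peptide exchange complex, ranged from 47.0 to 95.2 normalized counts with a median of 53.2 in KO lean mice and from 25.1 to 70.2 with a median of 37.0 in KO obese mice. Here too the groups overlapped, with 5 obese mice below all lean mice, and the log2 fold change was -0.65 ± 0.23 (adjusted p = 0.0675, limma). The 2 genes made up 2 of 10 members, while 24.1% of the 14213 genes tested passed an adjusted p below 0.1, the threshold of the study's methods, and 12.1% passed with lower levels in KO obese mice. A share of this size is near the background. At an unadjusted p below 0.05 the members numbered 4, against 32% of all genes. The median log2 fold change was -0.36 over the 10 members and -0.00 over all genes. The class II genes moved together across mice, so the signs of the 10 members are not independent. That of Ciita changed under 6 of 25 alternatives.

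The partner chain H2-Aa ranged from 311 to 685 (median 596) in KO lean mice and from 252 to 755 (median 289) in KO obese mice, with a log2 fold change of -0.52 ± 0.26 (adjusted p = 0.171, limma). The highest mouse of all 14 was in the obese group. H2-Eb1 (-0.44 ± 0.27, adjusted p = 0.279), Cd74 (-0.32 ± 0.23, adjusted p = 0.355), H2-DMb1 (-0.40 ± 0.24, adjusted p = 0.261) and Ciita (-0.10 ± 0.26, adjusted p = 0.833) did not pass the test. Ciita had medians of 38.5 in lean and 37.8 in obese KO mice, and its 95% interval ran from -0.64 to 0.45.

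Of the class I genes, H2-K1 ranged from 35494 to 59965 (median 40439) in KO lean mice and from 30321 to 40441 (median 34167) in KO obese mice, with a log2 fold change of -0.32 ± 0.14 (adjusted p = 0.139, limma). H2-D1 had medians of 7216 and 6603 in the same order and a log2 fold change of -0.31 ± 0.13 (adjusted p = 0.108). B2m, the chain that both heavy chains share, lay the other way. It ranged from 19504 to 30851 (median 24546) in lean and from 25335 to 30738 (median 28106) in obese KO mice, with a log2 fold change of 0.19 ± 0.12 (adjusted p = 0.301).

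**Figure D2:**
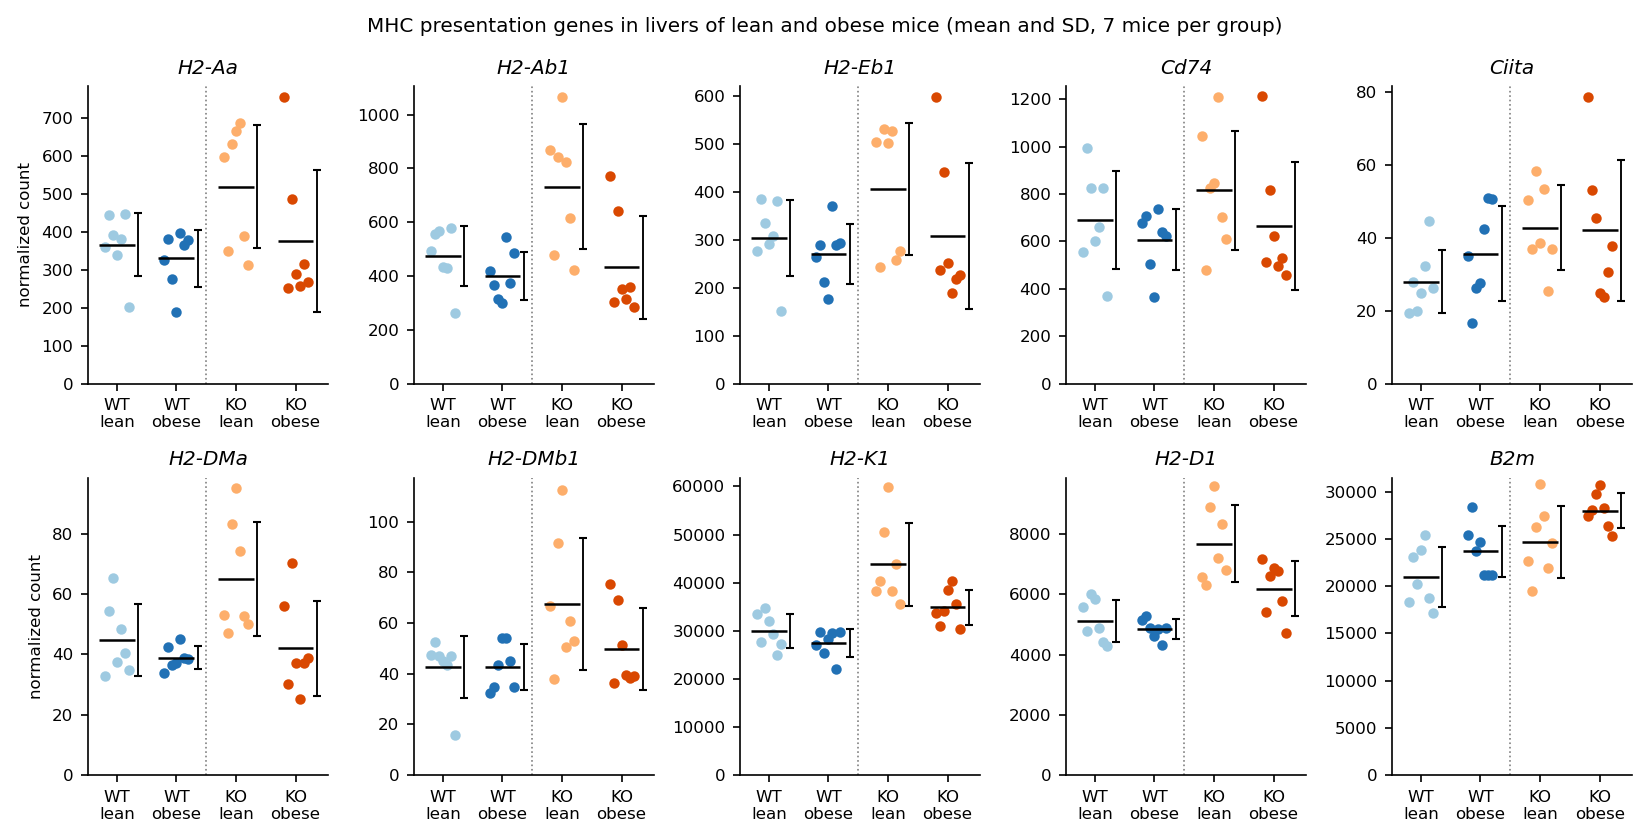
Normalized counts of the 10 genes in each mouse, with 1 panel per gene, the mean as a line and the SD as a bar (7 mice per group). The dotted line separates 2 tables with their own scaling, so that levels compare within WT and within KO only. H2-Ab1 and H2-DMa are the 2 genes that passed the test between KO groups, and in each the KO obese group has 2 mice well above its other 5.

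Both calls depended on the fit. When the identifier number entered as a random block, with an estimated correlation of 0.237, the adjusted p was 0.133 for H2-Ab1 and 0.182 for H2-DMa. When libraries were scaled to equal read totals, which moved the median of all genes to 0.14 and the split of all calls from 1704 higher and 1718 lower to 2557 and 627, H2-Ab1 (-0.65, adjusted p = 0.122) and H2-DMa (-0.50, adjusted p = 0.209) did not pass and B2m did (adjusted p = 0.0622). H2-Ab1 passed without any single mouse, and H2-DMa did not pass without 20-2L, 20L, 10R, 31L, 31N or 31R (adjusted p = 0.102 to 0.129). Without 10-2L, 5 members passed, with H2-Aa, H2-Eb1 and H2-D1 added. Without the 3 mice of number 20 the adjusted p of H2-Ab1 was 0.216 (log2 fold change -0.51), and without those of number 31 it was 0.300 (-0.54), with H2-DMa at 0.346 and 0.344.

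Markers of macrophages moved with this comparison. Of 11 Kupffer cell and macrophage genes tested, 8 were lower in KO obese than in KO lean mice and none higher (median log2 fold change -0.89), among them Vsig4, a complement receptor of Kupffer cells (-0.73, adjusted p = 0.00348), C1qa, a subunit of complement C1q (-0.89, adjusted p = 0.00362), and Timd4, a receptor for dying cells (-0.90, adjusted p = 0.00537). The summed level of the 11 genes, in which abundant genes weigh most, ran from 11670 to 24140 in lean and from 6632 to 9228 in obese KO mice, without overlap. Among all 14213 genes tested singly, 2.1% did not overlap between these groups. With the random block 7 of the 11 were lower (lowest adjusted p = 0.0266), and without the mice of any 1 identifier number 6 to 8 were. The 4 B cell genes tested were all lower (median -1.24), with summed levels of 52.2 to 133 against 9.23 to 53.4. Lower levels also passed for 2 of 5 T and NK cell, 2 of 6 pan-leukocyte and 2 of 6 sinusoidal endothelium genes. The same held for 1 of 5 monocyte and 1 of 6 stellate cell genes. Of 8 dendritic cell genes 0 passed in limma (summed levels 273 to 357 against 245 to 367), and of 6 hepatocyte genes 1 was higher. Over all genes 12.1% passed with lower levels. The part of these markers in the change of the MHC genes was not tested. In RNA of whole liver, fewer cells of a type and less RNA per cell cannot be told apart.

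The counts in the related lists below stand against 24.1% of all genes passing in this comparison and 12.1% passing with lower levels, and with so few genes in each list nothing particular to a list is read from them. Of other genes that serve class II, 2 of 6 were lower in obese KO mice and none higher: H2-Ob, a chain of the H2-O complex that restrains H2-DM (-1.08 ± 0.26, adjusted p = 0.0144), and Lgmn, an endosomal protease (-0.56 ± 0.15, adjusted p = 0.0231). Of 8 transcription factors of the class II promoter, 2 were higher, Nfyb, a subunit of the factor that binds CCAAT (0.37 ± 0.10, adjusted p = 0.0285), and the coactivator Crebbp (0.63 ± 0.24, adjusted p = 0.0858). Of 15 genes of class I peptide supply and loading, Erap1, which trims peptides (0.40 ± 0.12, adjusted p = 0.0349), and Tap2, a chain of the peptide transporter (0.31 ± 0.13, adjusted p = 0.0982), were higher and none was lower.

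Among 14 class Ib and class I-like genes tested, 4 were lower and none higher, again beside 12.1% of all genes lower. H2-Q2 had the largest fold of them (-1.65 ± 0.25, adjusted p = 0.00255), at means of 26.5 ± 5.64 and 8.10 ± 2.92 normalized counts in lean and obese KO mice (SD, n = 7). H2-Q10, a secreted class I molecule of hepatocytes, fell from 73750 ± 16970 to 53920 ± 9530 (-0.44 ± 0.17, adjusted p = 0.0916). Fcgrt, the neonatal Fc receptor, and H2-M3, which presents formylated peptides, also fell, by 0.42 and by 0.70 on the log2 scale (adjusted p = 0.0398 and 0.0625). Some H2-Q genes share sequence with H2-D1: of the windows of the H2-D1 transcript, 7.4% occur also in H2-Q1 and 5.99% in H2-Q7. Some reads could thus be divided between these genes. Sharing of sequence among the H2-Q genes themselves was not tested. Of 17 genes of the interferon gamma path, Jak2 (0.37) and Gbp7 (0.50) were higher. Of 12 genes induced by type I interferon, Ifit3 was higher (0.78) and Irf7 lower (-0.66).

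Between WT obese and WT lean mice 0 of the 10 genes passed in limma, against 6.27% of 14012 genes tested, and 0 passed in edgeR and DESeq2. None of the members had an unadjusted p below 0.05 in limma, edgeR or DESeq2. H2-Ab1 ranged from 263 to 580 (median 492) in WT lean and from 299 to 545 (median 376) in WT obese mice, with a log2 fold change of -0.23 ± 0.18 (95% interval -0.61 to 0.14; adjusted p = 0.524). H2-DMa had medians of 40.4 and 38.4 (-0.17 ± 0.17, adjusted p = 0.646), and B2m medians of 20265 and 23759 (0.18 ± 0.12, adjusted p = 0.473). All groups overlapped, and the intervals of the 10 genes ran from -0.61 at their lowest to 0.84 at their highest bound, the latter for Ciita.

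The difference between the genotypes in the effect of diet was itself tested. It was -0.56 ± 0.32 for H2-Ab1 (KO effect minus WT effect, 95% interval -1.22 to 0.10; adjusted p = 0.354, limma over 28 libraries) and -0.48 ± 0.28 for H2-DMa (adjusted p = 0.371). No member passed, none had an unadjusted p below 0.05 in limma, edgeR or DESeq2, and 0.00718% of 13924 genes did pass. The diet effects on these genes are thus not shown to differ between WT and KO mice. Of the related lists in WT mice, Mr1 (-0.92 ± 0.24, adjusted p = 0.0433) and H2-Q2 (-0.92 ± 0.28, adjusted p = 0.0877) were lower with the high fat diet, as were Rfxank, a subunit of the RFX factor that binds the X box (-0.67 ± 0.12, adjusted p = 0.00503), and Bst2 (-0.53 ± 0.12, adjusted p = 0.0227). Of the 11 Kupffer cell and macrophage genes, 0 passed in WT mice in limma (lowest adjusted p = 0.731), and 0 passed in the test of the difference between genotypes (median -0.845, lowest adjusted p = 0.139), so that their diet effect is not shown to differ either.

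**Figure D3:**
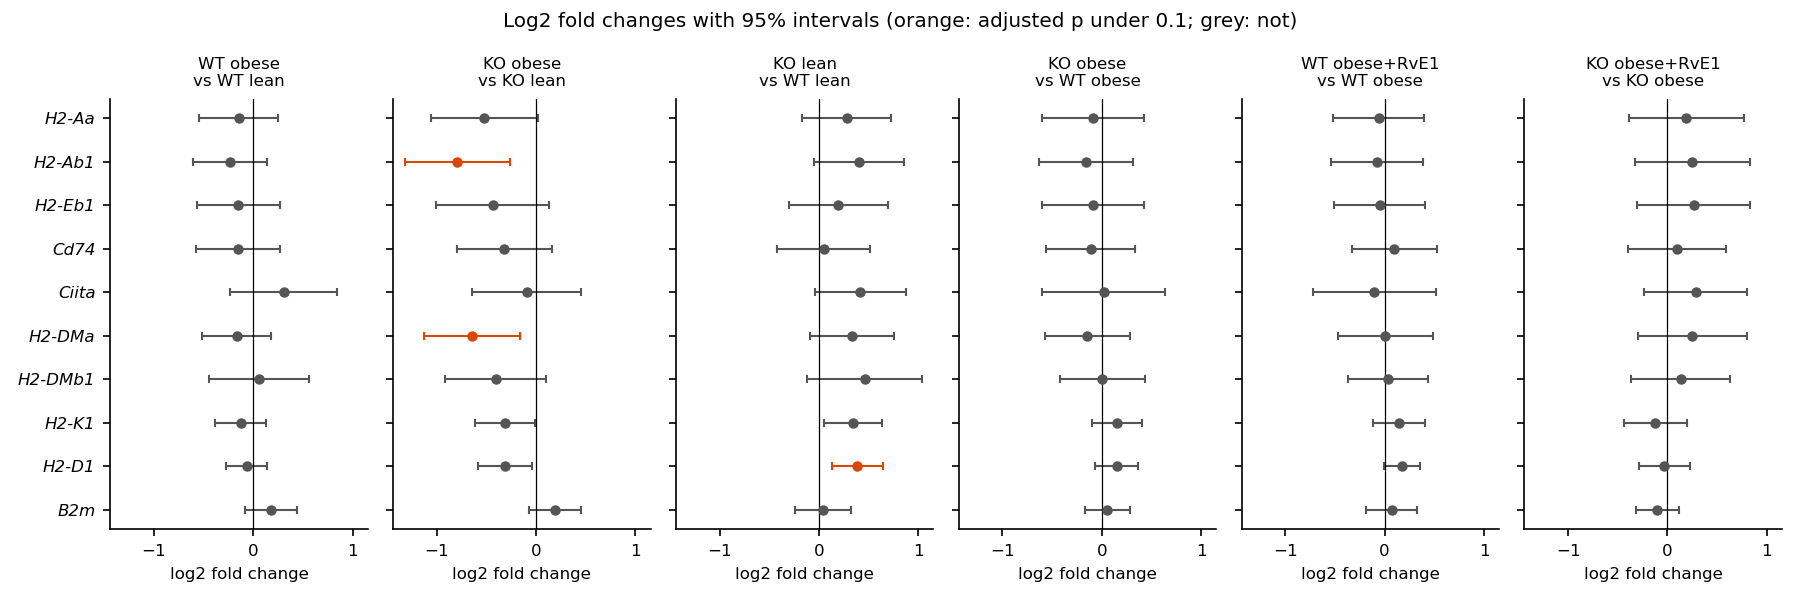
Log2 fold changes of the 10 genes (points) with 95% intervals (bars) in the 6 comparisons, from limma. The 3 orange points passed an adjusted p below 0.1: H2-Ab1 (-0.79) and H2-DMa (-0.65) between KO obese and KO lean mice, and H2-D1 (0.39) between KO lean and WT lean mice.

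Between the lean genotypes, H2-D1 was higher in KO mice. This class I heavy chain ranged from 4445 to 6254 normalized counts with a median of 5089 in WT lean mice and from 5738 to 8715 with a median of 6574 in KO lean mice. Of the KO mice 4 lay above all WT mice, and 4 WT mice lay below all KO mice. The log2 fold change was 0.39 ± 0.12 (95% interval 0.13 to 0.65; adjusted p = 0.0635, limma), a fold of 1.31. It was 1 of 10 members, against 16.3% of 13031 genes passing and 8% passing with higher levels in KO mice, again near the background. At an unadjusted p below 0.05 there were 2 members, against 26.8% of all genes.

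H2-K1 ranged from 25829 to 36015 (median 30691) in WT lean and from 32207 to 54374 (median 36715) in KO lean mice, with a log2 fold change of 0.34 ± 0.14 (adjusted p = 0.123). The 2 heavy chains thus had fold changes of like size and overlapping intervals, 1 on each side of the threshold. Their transcripts share some sequence, and the part of shared reads in this likeness was not tested. B2m differed less, with medians of 21057 and 22272 and a log2 fold change of 0.04 ± 0.13 (adjusted p = 0.869). The class II genes H2-Ab1 (0.40 ± 0.21, adjusted p = 0.240), H2-Aa (0.28 ± 0.21, adjusted p = 0.419) and Cd74 (0.05 ± 0.22, adjusted p = 0.914) did not pass. H2-Ab1 had medians of 511 in WT lean and 751 in KO lean mice, and the KO range of 383 to 966 contained much of the WT range of 274 to 599. All 10 fold changes lay above 0, with a median of 0.34 against -0.00 over all genes. The class II genes moved together across mice, so these 10 signs are not independent. Under the alternatives the sign changed for Cd74 (5 of 25), B2m (4 of 25) and H2-Eb1 (1 of 25). The KO lean mice here are those of the diet comparison above, so the 2 results share them.

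The call on H2-D1 was lost when the identifier number entered as a random block (adjusted p = 0.166) and at equal read totals (0.27, adjusted p = 0.147), a scaling that moved the median of all genes to -0.12 and the split of calls from 1042 higher and 1081 lower to 392 and 1753. It was also lost without any 1 of 20-2L, 20L and 9L among KO mice or 21L, 26R and 8R among WT mice (adjusted p = 0.104 to 0.127), and without the mice of number 8, 9, 20, 21 or 26 (adjusted p = 0.136 to 0.174). Markers of macrophages again moved with the comparison: 9 of 11 Kupffer cell and macrophage genes were higher in KO lean mice (median log2 fold change 0.84; summed levels 4712 to 9706 in WT and 10590 to 21890 in KO), but 0 with the block (lowest adjusted p = 0.111), 0 without the mice of number 26 and 2 without those of number 9. Of 6 pan-leukocyte genes 4 were higher, with Coro1a at 0.90 (adjusted p = 0.0205). Their part in the level of the MHC genes was not tested. Of 15 class I loading genes, Psmb9, a subunit of the immunoproteasome, was higher (0.84 ± 0.24, adjusted p = 0.0488). Of 5 class II accessory genes, Lgmn (0.68 ± 0.13, adjusted p = 0.0308) and H2-Ob (0.83 ± 0.29, adjusted p = 0.0839) were higher. Among 14 class Ib and class I-like genes H2-M3 was higher (0.54 ± 0.16, adjusted p = 0.0576, limma). Of 8 transcription factors of the class II promoter, Nfyb (-0.38 ± 0.11, adjusted p = 0.0526) and Crebbp (-0.69 ± 0.24, adjusted p = 0.0797) were lower. Among 12 genes induced by type I interferon, Ifi44 (0.60), Ifit1 (0.82) and Irf7 (0.61) were higher. Jak2 was lower (-0.36), among 17 genes of the interferon gamma path. All list counts here stand against 16.3% of all genes passing and 8% passing with higher levels.

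Between the obese genotypes no member passed (0 in limma, edgeR and DESeq2, and 0 at an unadjusted p below 0.05 in each), with 0.0141% of 14162 genes passing. H2-D1 had medians of 5380 in WT obese and 6402 in KO obese mice (0.15 ± 0.10), and H2-K1 medians of 31184 and 33128 (0.15 ± 0.12). H2-Ab1 ranged from 329 to 603 (median 412) in WT obese and from 273 to 751 (median 338) in KO obese mice (-0.16 ± 0.22). The KO group held both the lowest 3 and the highest 2 of these 14 mice. The adjusted p in limma was 0.9999 for all 10 genes.

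RvE1 was followed by no change that passed the test in either genotype. In WT obese mice 0 of 10 members and 0% of 13085 genes passed in limma. The study, with DESeq2 and the same threshold of 0.1, did report changed genes after RvE1, among them Myc in WT and Cish in KO mice. The share over all genes given here and below for RvE1 thus holds for limma only. No member had an unadjusted p below 0.05 in limma or edgeR, and 1 had in DESeq2. H2-D1 came nearest, with a range of 5042 to 6183 (median 5738) in WT obese and of 5685 to 7601 (median 6477) in WT obese+RvE1 mice, and 5 treated mice lay above all vehicle mice (0.18 ± 0.08, adjusted p = 0.837). H2-Ab1 ranged from 350 to 643 (median 439.9) with vehicle and from 240 to 759 (median 445) with RvE1 (-0.08 ± 0.22, adjusted p = 0.988). The treated group was the wider, from mouse 30R to mouse 7R, which were also its lowest and its highest for H2-Aa, H2-Eb1, Cd74, H2-DMa and H2-DMb1.

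In KO obese mice 0 of 10 members and 0% of 14207 genes passed in limma, and no member had an unadjusted p below 0.05 in limma, edgeR or DESeq2. H2-Ab1 ranged from 286 to 786 (median 356) with vehicle and from 284 to 791 (median 519) with RvE1, with a log2 fold change of 0.25 ± 0.27 (adjusted p = 0.801). Ciita had medians of 38.1 and 51.0 (0.28 ± 0.24, adjusted p = 0.750), and its 7 treated mice (37.9 to 64.1) lay within the vehicle range of 23.8 to 80.0. Intervals in this comparison reached from -0.44 to 0.83 on the log2 scale, so that changes within that span remain possible with 7 mice per group. A test of the difference in RvE1 effect between genotypes also passed for none (0 of 10 members, 0% of 13059 genes, none of the members at an unadjusted p below 0.05 in limma, edgeR or DESeq2), with values from -0.26 ± 0.18 for H2-K1 to 0.39 ± 0.39 for Ciita. No gene of the related lists passed in either RvE1 comparison or between the obese genotypes.

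Ratios of read pairs between 2 genes of the same library do not depend on a size factor and can be set side by side over all 42 mice. The ratio of H2-K1 to H2-D1 stayed close to 1 value, with group means from 5.35 ± 0.563 in KO obese+RvE1 to 5.87 ± 0.284 in WT lean mice (SD, n = 7 each). The transcripts of H2-K1 and H2-D1 share some sequence, and the part of shared reads in this ratio was not tested. The ratio of B2m to H2-K1 averaged 0.574 ± 0.0952 among lean KO mice and 0.809 ± 0.0707 among obese KO mice, and 6 obese mice lay above all lean mice. This difference of 0.236 had an exact permutation p of 0.00117 and an adjusted p of 0.049 over 42 tests of 7 ratios in 6 comparisons. Without any single mouse it stayed between 0.220 and 0.259, and without the mice of any 1 identifier number between 0.196 and 0.273, with an unadjusted exact permutation p of at most 0.0121. The test treats mice that share a number as independent.

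In WT mice the same ratio was 0.708 ± 0.122 with the control and 0.871 ± 0.111 with the high fat diet (exact permutation p = 0.0268, adjusted p = 0.375), and between WT lean and KO lean mice the exact permutation p was 0.0443 (adjusted p = 0.411). Neither passed after adjustment. The ratio of H2-Ab1 to H2-Aa averaged 1.42 ± 0.143 among lean KO mice and 1.17 ± 0.103 among obese KO mice (difference -0.247, exact permutation p = 0.0035, adjusted p = 0.0734). Omitting the mice of any 1 identifier number gave an unadjusted exact permutation p of at most 0.0242. These were the 2 ratio tests with an adjusted p below 0.1. Since a ratio gives unequal change only, it does not say which gene moved. H2-Eb1 to H2-Aa had group means between 0.780 and 0.870 and Cd74 to H2-Aa between 1.60 and 2.07, with no adjusted p below 0.1.

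**Figure D4:**
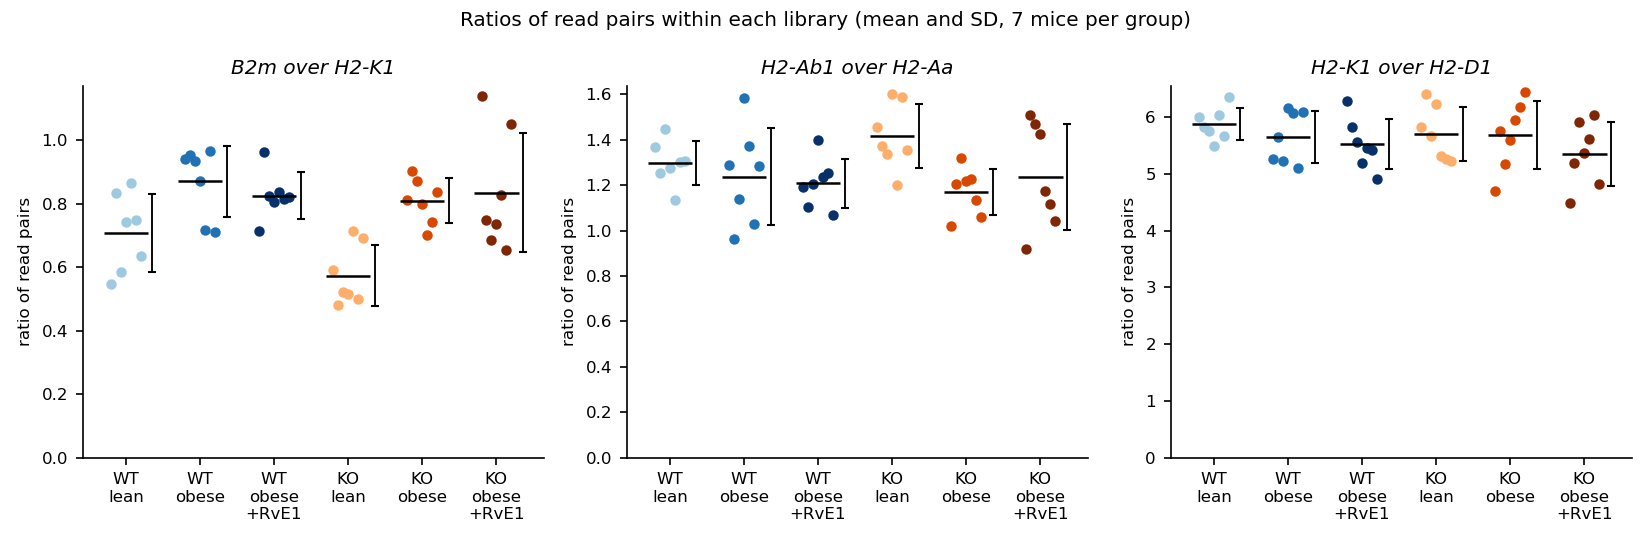
Ratios of read pairs in each of 42 libraries by group, with the mean as a line and the SD as a bar. B2m over H2-K1 is lowest in KO lean mice (mean 0.574), H2-Ab1 over H2-Aa is highest there (mean 1.42), and H2-K1 over H2-D1 has group means from 5.35 to 5.87.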

How the data were processed

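Liver RNA-seq data of 42 mice were used, 1 library each. The authors prepared TruSeq stranded total RNA libraries (the labels also give polyA RNA), used Bowtie2 for alignment to mm10 and featureCounts of Subread for counting (both ends mapped), and ran DESeq2 for each comparison. Tool versions, the annotation and the strand option: not given in the sources used here. The deposited signal values are read pairs divided by DESeq2 size factors of the 14 libraries in a table, and 100% came out as whole reads within 0.1. The deposited tables also hold the authors' base means, log2 fold changes and p-values, which were not used.

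Each comparison was tested within its table with limma 3.58.1 (lmFit, eBayes with trend; R 4.3.3) on log2(normalized count + 1), two-sided, over genes with a mean of at least 5, with Benjamini-Hochberg adjustment over all genes and a threshold of 0.1. Interactions used 28 libraries. Alternatives were pseudocounts of 0.5 and 4, no filter, TMM, equal read totals, edgeR 4.0.16 (quasi-likelihood), DESeq2 1.42.0, a random block for the identifier number, library quality weights, an adjusted p under 0.05, a fold change above 1.5, and leaving out each mouse. Omitting mice by identifier number was added after seeing the data. Procedures were tested on simulated data with 200 changed genes. Groups came from GEO's labels. Named genes were the 10 members in every comparison, at most the 4 smallest adjusted p among passing genes per related list, and the 8 genes most like each class mean, of which 1 is not reported here. The members and lists were chosen with earlier results of these data known. Positions and exon lengths came from GENCODE M21, promoters from RefSeq. Promoter sequence was printed for some members only.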

Additional observations from a re-analysis of the deposited data

Results flagged for a closer look

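The level of H2-DMb1 in the WT lean mouse 8RL was 15.7 normalized counts, while the next lowest mouse of the group had 43.4. Its gap to that mouse was 0.751 of the range of the 7 mice, above the critical value of Dixon's test for 7 samples. It was the single such value among 60 sets of 7 mice (10 genes in 6 groups), where chance marks about 1 set in 20. The same mouse was the lowest of its group for H2-Aa, H2-Ab1, H2-Eb1 and Cd74, and also for the class I genes H2-D1 and B2m.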

How the results depend on the processing

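In 5 of the comparisons (WT diet, obese genotypes, both RvE1 comparisons and the RvE1 interaction) and in the diet interaction, no member passed under any alternative that was run. Between KO obese and KO lean mice 2 members passed. This became 1 at equal read totals (B2m) and at an adjusted p under 0.05 (H2-Ab1), 4 with DESeq2 (H2-Ab1, H2-DMa, H2-K1, H2-D1) and with library quality weights (H2-Ab1, B2m, H2-K1, H2-D1), 0 with a random block for the identifier number, and 1 to 5 when single mice were left out. Omitting number 10 gave 4, number 20 gave 1 (B2m) and number 31 gave 0. Between KO lean and WT lean mice 1 member passed. This became 2 with DESeq2 (H2-D1, H2-K1), 0 at equal read totals, with the random block, at an adjusted p under 0.05 and at a fold change above 1.5, and 0 to 2 when single mice were left out. Omitting number 8, 9, 20, 21 or 26 gave 0. The cause of these changes was not tested. The 3 values that passed kept their sign in every alternative. Of the 77 values that did not pass, 27 changed sign under at least 1 alternative and 6 passed under at least 1. No paired analysis was possible because the groups compared share at most 1 identifier number. Depth limits Ciita, H2-DMa and H2-DMb1, with as few as 14, 19 and 18 read pairs in a library.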
